A study of Rattus norvegicus with 10 samples.

Results

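Histone deacetylases remove acetyl groups from histone tails and keep chromatin compact over genes that a cell does not use. Inhibitors of these enzymes let acetyl groups accumulate, and genes of other tissues and developmental stages can then be transcribed. The genes described here had almost no reads in untreated rat primary neuron–glia cultures and had reads in every culture treated with either of 2 such inhibitors. Members were chosen by a rule on reads, with at most 3 reads in all 5 control libraries and at least 10 reads in all 5 treated libraries. Of 32883 genes in the deposited data, 110 met the rule. From these, 19, among them Hox, Nkx, Dlx and Pou4f genes, were left out by symbol, which left 91 members, 83 of them with a symbol.

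The cultures were prepared from the cortex of Wistar rat pups and held neurons together with glia. On the 14th day in vitro they received trichostatin A (TSA, a hydroxamic acid) at 100 nM for 19 h (n = 3) or sodium butyrate (NaB, the salt of a short fatty acid) for 24 h (n = 2), both without washout. The labels give 5 µM for NaB and the methods of the study give the same figure in millimolar. Each drug had its own untreated controls at the same time points, with 3 control libraries for TSA and 2 for NaB, and the NaB cultures belonged to a separate project. Drug, incubation time and project changed together, so that their parts in a difference between TSA and NaB cannot be told apart. The libraries were made from poly(A) RNA and held from 26070908 to 27649249 recovered reads. In RNA of whole cultures, a change in the number of cells of a type and a change in the RNA per cell cannot be told apart. The labelled cell type was not checked here, since none of the neuron, astrocyte or oligodendrocyte markers on the lists was paired with an identifier in the table used for names.

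"Silent" is used here for the read limit alone. It held for 15729 genes, of which 7139 had a read in any library, and 110 genes (1.54% of those with a read) reached 10 reads in all treated libraries. No gene did the reverse, with at least 10 reads in all controls and at most 3 in all treated libraries. Among the members, 9 had no read in any of the 5 controls, among them Tlx3, Lhx1, Tfap2e, Sox14, Hand2, Pax9, Best2 and Prr23a. The median member had 5 reads summed over the 5 controls and 17 reads in its lowest treated library. Only 7 members, Gpr50, Fam83g, Skor2, Foxd2, Npw, Wnt6 and Pgr15l, had at least 50 reads in every treated library, so that most values below rest on few reads. Counting intervals given below cover counting error only.

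**Figure D1:**
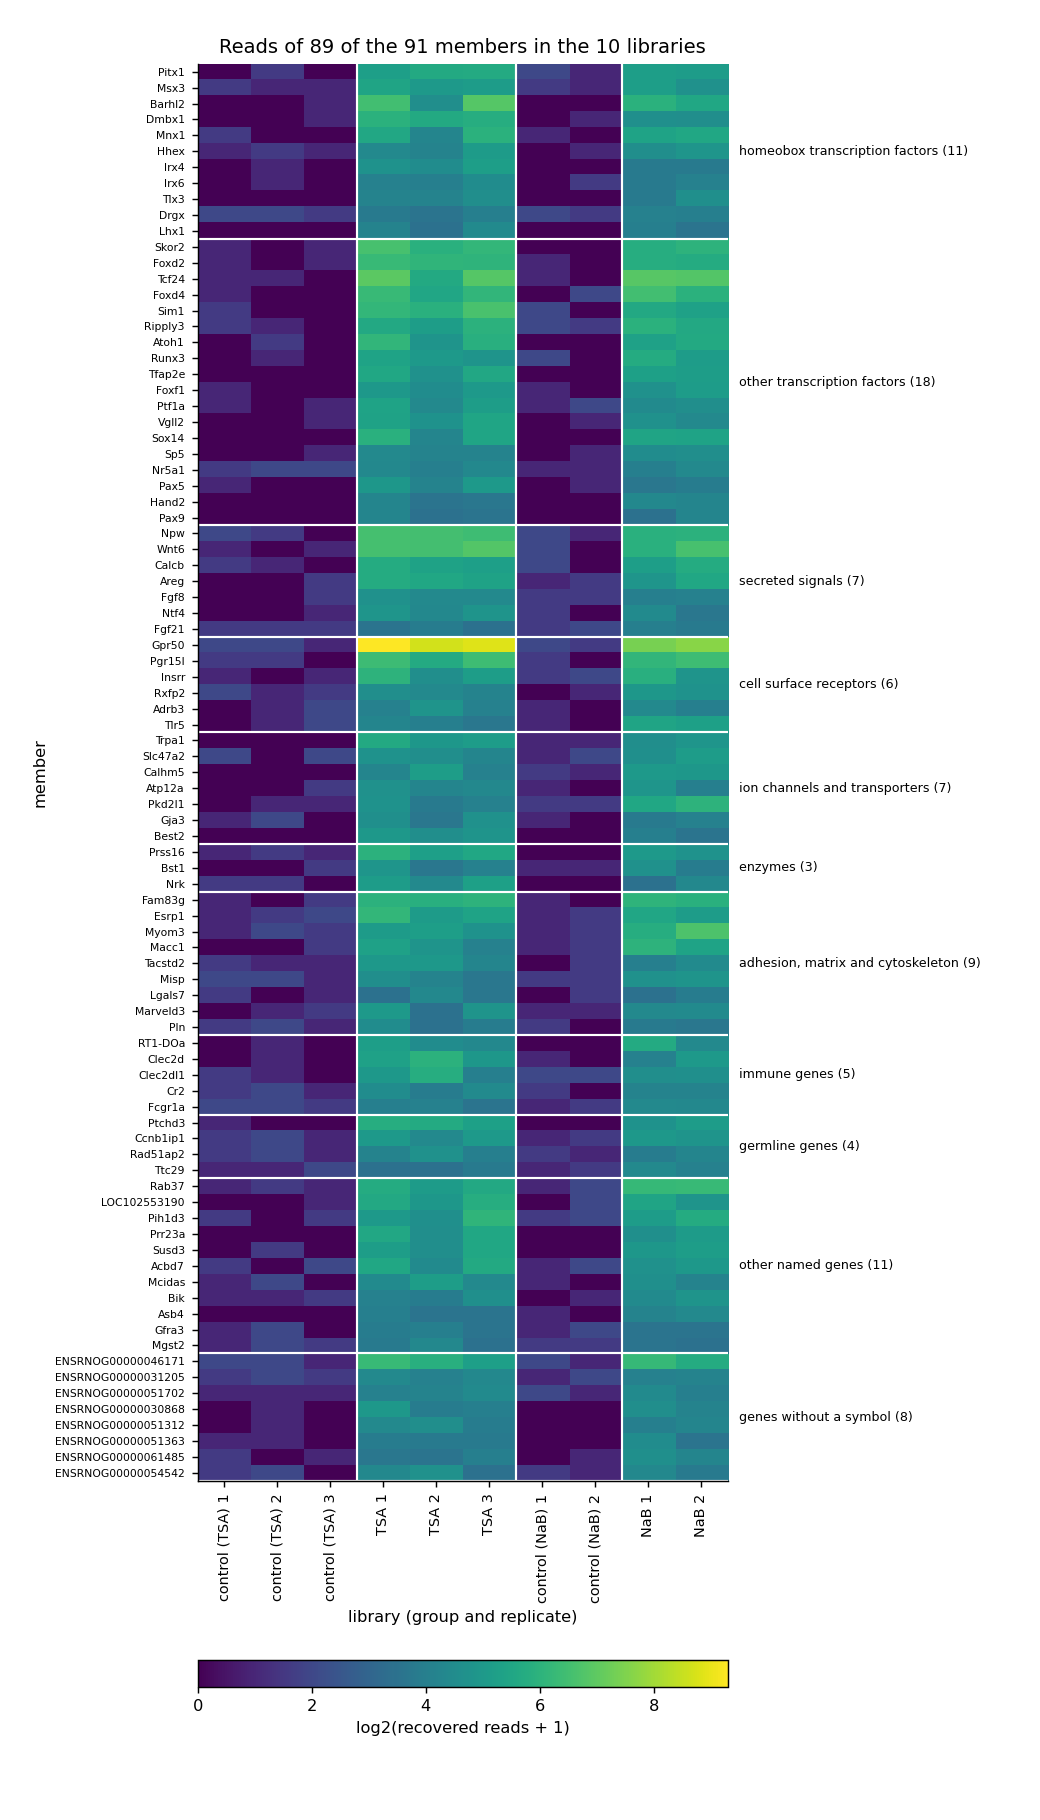
Reads of 89 of the 91 members (rows, grouped by role with the number of rows) in the 10 libraries (columns), as log2(recovered reads + 1). Control columns hold 0 to 3 reads and treated columns at least 10, as the rule requires, and the brightest row is Gpr50 with 627, 399 and 459 reads in the TSA-treated libraries.

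A gene was called where its adjusted p in limma was below 0.05 and its log2 fold change at least 0.5 in either direction. All 91 members passed the filter on low counts and were called higher with TSA, where 22.5% of all 15717 tested genes were called higher and 19.7% lower. With NaB, all 91 were called higher by limma as well (89 by DESeq2), against 21.2% of all tested genes, with 20.3% lower. These calls follow from the rule and are given as a description. The median log2 fold change of the members was 3.94 with TSA and 3.87 with NaB on the scale of log2(normalized count + 1), beside medians of 0.02 and 0.02 over all tested genes. On the recovered reads the members' medians were larger, at 5.13 and 4.77 by edgeR and 5.43 and 5.01 by DESeq2. Summed over the members, the level in CPM (reads of a gene scaled to an equal library total) was 3.39, 3.52 and 2.97 in the controls for TSA and 150, 104 and 137 with TSA. The NaB experiment gave 3.59 and 3.35 for untreated and 111 and 114 for treated libraries. In this sum the second TSA library was the lowest of the 5 treated libraries, and both NaB libraries lay between it and the other TSA libraries. Over the 60 members that are not transcription factors, the order differed. They summed to 97.1, 72.8 and 82.8 with TSA and to 69.7 and 73.6 with NaB, so that the first NaB library was the lowest.

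**Figure D2:**
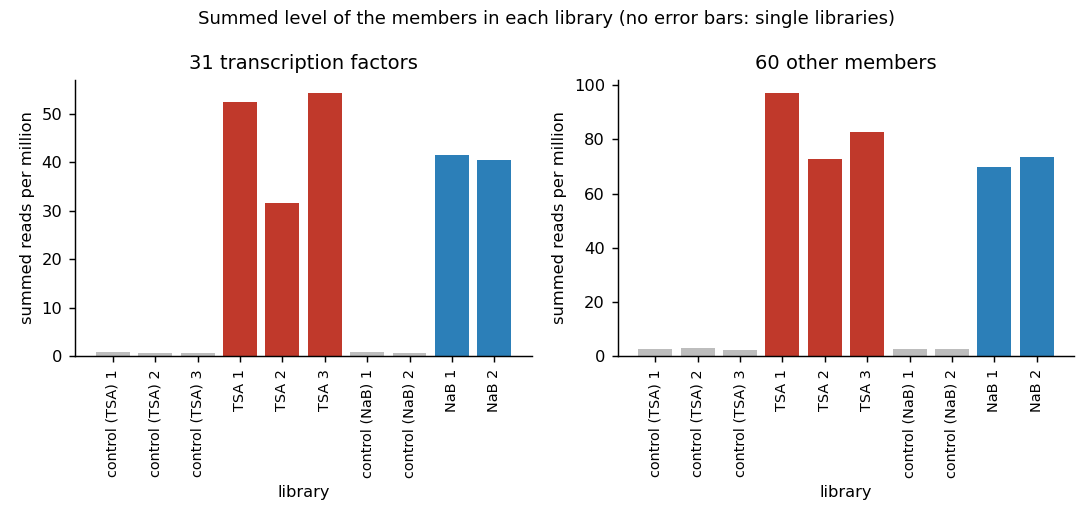
Summed level of the 31 transcription factor members (left) and the 60 other members (right) in CPM, with 1 bar per library and no error bars. Transcription factors summed to 52.5, 31.6 and 54.3 with TSA and to 41.5 and 40.5 with NaB, and to at most 0.897 in a control. The other members summed to 97.1, 72.8 and 82.8 with TSA and to 69.7 and 73.6 with NaB.

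Promoter sequences of 6 members are shown as examples that differ in CpG content, and include Gpr50 and Pkd2l1, the members with the lowest and the highest ratio of the mean with NaB to the mean with TSA. They are RefSeq sequences of the rat assembly GRCr8, 120 bases that end at the base before the annotated start, 5′ to 3′ on the strand of the gene, with each CpG in capitals.
Gpr50 (chrX:154413569-154413688, plus strand): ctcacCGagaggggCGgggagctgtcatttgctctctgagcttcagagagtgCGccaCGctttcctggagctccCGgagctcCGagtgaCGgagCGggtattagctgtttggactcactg
Pkd2l1 (chr1:253000949-253001068, minus strand): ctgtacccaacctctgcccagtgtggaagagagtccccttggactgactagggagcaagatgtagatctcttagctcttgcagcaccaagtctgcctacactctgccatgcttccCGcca
Foxd2 (chr5:133667484-133667603, minus strand): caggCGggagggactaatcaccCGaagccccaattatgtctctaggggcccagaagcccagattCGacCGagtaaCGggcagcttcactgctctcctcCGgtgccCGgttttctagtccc
Tfap2e (chr5:144314619-144314738, minus strand): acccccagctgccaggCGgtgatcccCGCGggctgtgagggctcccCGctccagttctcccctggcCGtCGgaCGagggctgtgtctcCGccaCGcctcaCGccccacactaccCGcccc
Wnt6 (chr9:83778432-83778551, plus strand): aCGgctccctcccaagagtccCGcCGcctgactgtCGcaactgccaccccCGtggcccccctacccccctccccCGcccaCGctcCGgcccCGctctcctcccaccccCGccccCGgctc
Clec2d (chr4:163902513-163902632, plus strand): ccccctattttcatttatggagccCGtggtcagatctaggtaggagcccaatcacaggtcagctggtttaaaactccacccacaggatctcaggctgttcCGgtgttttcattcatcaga

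The printed stretches hold 11 CpGs in Tfap2e and in Wnt6, 8 in Gpr50, 7 in Foxd2, 2 in Clec2d and 1 in Pkd2l1. In the full window of 300 bases (250 before and 50 after the start), the count ran from 31 in Wnt6 to 3 in Pkd2l1, beside a median of 7 over 27457 RefSeq promoters. On either strand of that window, the motif GGGCGG, which itself holds a CpG, was found in Gpr50, Foxd2, Tfap2e, Wnt6 and Clec2d and not in Pkd2l1, and 34.9% of all promoters hold it. CCAAT was found in Gpr50, Pkd2l1, Foxd2 and Clec2d (37.7% of all promoters). TATAAA (14.3% of all promoters), CACGTG (6.65%) and TGACGTCA (1.91%) were found in none of the 6. A comparison of base composition over all members is void, because only 63 of the 83 members with a symbol (75.9%) matched a promoter entry.

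Transcription factors on the lists made up 31 of the 91 members (34.1%), after 19 genes, most of them factors as well, had been left out. Of the 1911 identifiers with a symbol, 53 were on the homeobox list and 99 on the list of other factors. The lists were chosen with earlier results known, so the share is a description. Homeobox genes, whose products bind DNA through a homeodomain and set regional identity in the embryo, accounted for 13, among them Pitx1, Msx3, Barhl2, Dmbx1, Mnx1, Hhex, Irx4, Irx6, Tlx3, Drgx and Lhx1. Pitx1, a factor of the hindlimb and the pituitary, had 0, 2 and 0 reads in the controls for TSA and 37, 49 and 50 with TSA, and its counts were 3 and 1 against 36 and 34 in the NaB experiment. In normalized counts of Pitx1, NaB lay below TSA.

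For Msx3, a gene of the dorsal neural tube in rodents, the counts were 2, 1 and 1 against 42, 32 and 34 with TSA, and 2 and 1 against 36 and 25 with NaB, and the drugs overlapped. Barhl2, Mnx1, Lhx1, Sox14, Atoh1, Sim1, Ntf4, Best2, Pkd2l1 and Fcgr1a are described in addition to the members named by rule and were chosen after their values were seen. Barhl2, a factor of the diencephalon and retina, varied most among the homeobox members within TSA, at 88, 23 and 115 reads beside 0, 0 and 1 in the controls, and had 60 and 45 with NaB. Mnx1, which marks motor neurons, showed the same order within TSA (47, 18 and 61 reads) and 41 and 45 reads with NaB. Lhx1, a factor of the head organizer and kidney, was at the lower limit of the rule with 17, 10 and 21 reads with TSA and 15 and 11 with NaB.

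The other 18 factors came from several families. They included forkhead genes (Foxd2, Foxd4, Foxf1), basic helix-loop-helix genes (Atoh1, Ptf1a, Hand2, Sim1, Tcf24), paired-box genes (Pax5, Pax9), Runx3, Tfap2e, Sox14, Sp5 and the nuclear receptor Nr5a1, together with the cofactors Skor2, Ripply3 and Vgll2. Their mean normalized counts ranged from 12.2 to 90.1 with TSA and from 12.4 to 108 with NaB. Skor2, a corepressor of cerebellar Purkinje cells, had 1, 0 and 1 reads in the controls for TSA and 95, 58 and 71 with TSA, a ratio of 99.2 (95% counting interval 27.4 to 831). With NaB it had 55 and 63 reads beside 0 and 0 in the controls. Foxd2 had 1, 0 and 1 reads against 75, 67 and 65 with TSA and 1 and 0 against 54 and 51 with NaB, and the NaB libraries lay below all TSA libraries.

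Tcf24 reached 124, 49 and 113 reads with TSA and 116 and 110 with NaB, beside at most 1 read in each control. Foxd4 had 1, 0 and 0 reads against 75, 44 and 69 with TSA, and 0 and 3 against 89 and 60 with NaB. These 2 genes overlapped between the drugs. Atoh1, the determinant of cerebellar granule cells and inner-ear hair cells, had 69, 27 and 57 reads with TSA and 39 and 49 with NaB, and 2 reads in 1 control library alone. Sim1, needed for neurons of the paraventricular hypothalamus, had 71, 59 and 97 reads with TSA and 48 and 39 with NaB. Its NaB libraries lay below all TSA libraries.

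Secreted signals were represented by 7 members (Npw, Wnt6, Calcb, Areg, Fgf8, Ntf4 and Fgf21). Npw encodes the peptide neuropeptide W and had 3, 2 and 0 reads in the controls for TSA and 92, 91 and 85 with TSA, and 3 and 1 against 59 and 62 in the NaB experiment. Its TSA libraries were close to each other (83.7 ± 2.21 normalized counts, SD, n = 3), and both NaB libraries lay below them (57.8 ± 2.84, n = 2). Wnt6, a Wnt ligand, had 92, 90 and 112 reads with TSA and 58 and 96 with NaB, with at most 3 in a control. The ratio of Wnt6 to its controls was 130 with TSA (95% counting interval 36.0 to 1089) and 47.4 with NaB (15.8 to 231). Both drugs overlapped for Wnt6.

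Calcb, which encodes a calcitonin gene-related peptide, had 52, 40 and 37 reads with TSA and 36 and 52 with NaB. Areg, a ligand of the EGF receptor, had 52, 45 and 40 reads with TSA and 28 and 46 with NaB. Controls of both held 0 to 3 reads. Ntf4, the neurotrophin that signals through TrkB, had 28, 19 and 27 reads with TSA and 21 and 12 with NaB, beside 0, 0, 1, 2 and 0 in the 5 controls. Fgf8, a morphogen of the midbrain–hindbrain boundary, had 25, 20 and 20 reads with TSA and 15 and 16 with NaB, which lay below. The liver hormone gene Fgf21 had the smallest folds of the 7, with a ratio of 5.19 with TSA (2.17 to 15.2) and 5.13 with NaB (1.96 to 17.1).

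Cell surface receptors numbered 6 (Gpr50, Pgr15l, Insrr, Rxfp2, Adrb3 and Tlr5). Gpr50, an X-linked orphan receptor related to the melatonin receptors, had 3, 3 and 1 reads in the controls for TSA and 627, 399 and 459 with TSA. In the NaB experiment it had 3 and 2 reads in the controls and 167 and 197 with NaB. No other member had as many reads with either drug, and all NaB libraries lay below all TSA libraries. Its ratio to the controls was 191 with TSA (95% counting interval 91.7 to 472) and 67.0 with NaB (28.4 to 207). Pgr15l had 82, 50 and 84 reads with TSA and 69 and 85 with NaB, with at most 2 in a control. Insrr, an insulin receptor-related receptor that senses alkaline pH, had 63, 23 and 35 reads with TSA and 57 and 27 with NaB. Both genes overlapped between the drugs. Rxfp2, the receptor of the testis hormone INSL3, had 23, 20 and 17 reads with TSA and 29 and 26 with NaB, which lay above.

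Ion channels and transporters numbered 7 (Trpa1, Slc47a2, Calhm5, Atp12a, Pkd2l1, Gja3 and Best2). Trpa1, the irritant receptor of sensory neurons, had no read in the controls for TSA and 49, 29 and 34 with TSA, and 1 and 1 against 23 and 28 in the NaB experiment. Slc47a2, a multidrug exporter, had 26, 23 and 18 reads with TSA and 24 and 34 with NaB. Calhm5 had 18, 35 and 16 reads with TSA and 31 and 29 with NaB, so that here the second TSA library was the highest. Atp12a, a proton–potassium pump, had 25, 18 and 19 reads with TSA and 28 and 15 with NaB. All 4 overlapped between the drugs, while Pkd2l1, a channel of neurons that contact the cerebrospinal fluid, had 26, 13 and 16 reads with TSA and 45 and 64 with NaB, and Best2, a chloride channel, had 30, 23 and 27 with TSA and 15 and 11 with NaB.

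Enzymes numbered 3. Prss16, a serine protease known from the thymus, had 62, 37 and 46 reads with TSA and 31 and 26 with NaB, with no read in the controls for NaB. Bst1, an ADP-ribosyl cyclase, had 28, 12 and 16 reads with TSA and 25 and 14 with NaB. The kinase gene Nrk had 34, 20 and 38 reads with TSA and 10 and 19 with NaB. In all 3 the second TSA library was the lowest.

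The list for adhesion, matrix and cytoskeleton held 9 members, several of them known from epithelia or muscle. It also held genes with other functions, such as Esrp1 and Pln. Fam83g had 62, 57 and 63 reads with TSA and 65 and 59 with NaB, beside 1, 0, 2, 1 and 0 in the 5 controls. Esrp1, a splicing regulator of epithelial cells, had 70, 33 and 41 reads with TSA and 44 and 34 with NaB. Both overlapped between the drugs. Myom3, a protein of the sarcomere, had 33, 36 and 26 reads with TSA and 54 and 102 with NaB, which lay above but far apart from each other. Macc1 had 39, 27 and 16 reads with TSA and 64 and 41 with NaB, again with NaB above. The phospholamban gene Pln, a regulator of the calcium pump in heart muscle, was at the limit of the rule, with 22, 10 and 14 reads with TSA and 13 and 12 with NaB.

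Immune genes numbered 5. RT1-DOa, a class II histocompatibility gene, had 36, 22 and 19 reads with TSA and 50 and 20 with NaB, beside 1 read in 1 control. Clec2d and Clec2dl1, lectin-like genes that are close relatives and may share reads, had 39, 62 and 29, and 30, 55 and 15 reads with TSA. With NaB they had 16 and 32, and 23 and 24. In both, the second TSA library was the highest, which held for 15.4% of all members. Cr2, a complement receptor of B cells, had 22, 14 and 21 reads with TSA and 17 and 17 with NaB, and Fcgr1a, an antibody receptor of macrophages, had 15, 16 and 11 with TSA and 20 and 19 with NaB.

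Germline genes numbered 4. Ptchd3, known from sperm, had 54, 50 and 38 reads with TSA and 26 and 34 with NaB, beside 1 read over the 5 controls, and its NaB libraries lay below. Ccnb1ip1, which takes part in meiotic crossing over, had 32, 20 and 31 reads with TSA and 30 and 27 with NaB. Rad51ap2 had 17, 25 and 15 reads with TSA and 14 and 18 with NaB. Ttc29, a gene of the sperm flagellum, had 10, 10 and 13 with TSA and 20 and 16 with NaB, which lay above.

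Another 11 named members were on none of the lists of genes by role, so that the number given for a role counts listed genes only. These members included Mcidas and Pih1d3, which act in the making of motile cilia, and Bik, a promoter of apoptosis. Gfra3, a receptor of the GDNF family, was also on no list. Rab37, a small GTPase of secretory vesicles, had 51, 33 and 48 reads with TSA and 74 and 75 with NaB, which lay above, and at most 3 reads in a control. LOC102553190 had 48, 29 and 54 reads with TSA and 42 and 27 with NaB, which overlapped. RefSeq gives this RNA the synonym Lhx1os and places it next to Lhx1, and the pair was the only one of 2 members that stood side by side among all genes of GRCr8. Strand was not stated for the counting, so reads of a gene and of an RNA from the opposite strand could not be told apart where they overlap. Counted over protein-coding genes alone, Clec2d and Clec2dl1 were 2 steps apart and no 2 members were direct neighbours, while Ttc29 lay next to Pou4f2, which was left out by symbol. The 83 members with a symbol were spread over 21 chromosomes.

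Of the 8 members without a symbol, ENSRNOG00000046171 had 75, 57 and 37 reads with TSA and 73 and 52 with NaB, and ENSRNOG00000031205 had 20, 16 and 19 with TSA and 16 and 17 with NaB. Both had up to 3 reads in a control and overlapped between the drugs. The other 6 had from 10 to 30 reads in the treated libraries.

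The rule required at least 10 reads with both drugs and so left out silent genes that reached this with only 1 of them (17 with TSA and 71 with NaB). The size of the difference between the drugs among the members is limited by that choice, and the shares of all tested genes, which were not chosen in this way, are given as background from which nothing is read about the members. For the response to NaB minus the response to TSA, no member of 91 was called by limma, where 0.299% of all tested genes were called (0.0255% higher and 0.274% lower). With the replicate pair as a block, again none was called, beside 2.57% of all tested genes. An unadjusted p under 0.05 was found for 5 members (5.49%, beside 12.6% of all tested genes), namely Gpr50, Trpa1, Tlr5, Rxfp2 and Myom3. On the recovered reads, edgeR called none, beside 0.35% of all tested genes, with 1 member at an unadjusted p under 0.05 (1938 of all tested genes). DESeq2 called none of the 13 members for which it gave an adjusted p, beside 1.88% of the 13580 genes with one, and 0 of the 91 had an unadjusted p under 0.05 (1850 of all tested genes). The differences ranged from -1.51 to 1.91 on the log2 scale, with a median of 0.07. A difference that misses the threshold does not show that the drugs act alike, and control values of 0 to 3 reads enter each of these differences.

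In limma with 1 added before taking logs, the members at either end were Gpr50 (log2 difference -1.51, SE 0.51, limma adjusted p = 0.270), Trpa1 (-1.51, SE 0.57) and Fgf8 (-1.50, SE 0.76) at the low end and Tlr5 (1.91, SE 0.85), Rxfp2 (1.53, SE 0.66) and Myom3 (1.49, SE 0.61) at the high end. Tlr5, the receptor of bacterial flagellin, had 0, 1 and 3 reads in the controls for TSA and 18, 15 and 12 with TSA, and 1 and 0 against 42 and 38 with NaB. The NaB libraries of Tlr5 all lay above the TSA libraries. The sizes and the order of these differences depend on how control values near 0 are treated. For Trpa1 the difference was -3.76 by edgeR, -0.70 with 5 added in place of 1, and -0.48 between the treated libraries alone. Fgf8 had -0.68 with 5 added and -0.43 between the treated libraries, and Rxfp2 had 0.76 and 0.47. Gpr50 lay between -1.51 and -1.39 in the same settings. By edgeR the ends also held Calhm5 (-3.36), Prss16 (2.89) and ENSRNOG00000051363 (3.06), chosen after their values were seen.

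**Figure D3:**
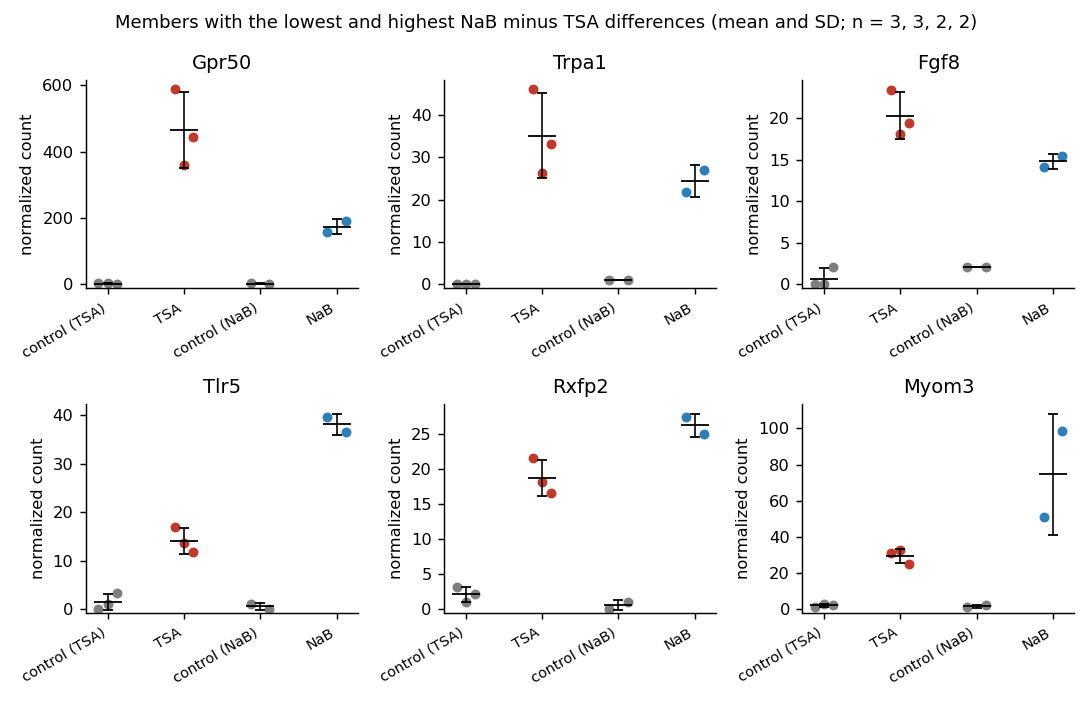
Normalized counts of the 3 members with the lowest (top) and the 3 with the highest (bottom) NaB minus TSA difference, with a point per library and the mean and SD of each group (n = 3, 3, 2 and 2). Gpr50 reached 465 ± 115 with TSA and 174 ± 22.7 with NaB, and Tlr5 14.0 ± 2.64 with TSA and 38.2 ± 2.16 with NaB.

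Treated libraries were also compared with each other directly, without the controls, a comparison added after the data were seen. It rests on the treated reads that the rule used, so that the calls and counts in this comparison are a description. limma called 1 member, Gpr50, which was lower with NaB (log2 difference -1.39, SE 0.36), where 4.42% of all tested genes were called. Lower calls made up 3.21% of all tested genes and higher calls 1.2%. Of the 43 members with an adjusted p in DESeq2, it called Gpr50, beside 6.19% of all genes with one. edgeR, which called 4.6% of all tested genes, called Gpr50, Pkd2l1 (limma log2 difference 1.58, SE 0.48) and Myom3 (1.24, SE 0.43). All NaB libraries lay above all TSA libraries in 14 members (15.4%, beside 20.2% of all tested genes) and below them in 13 (14.3%, beside 22.1%), and in 64 members the drugs overlapped. The mean with NaB divided by the mean with TSA had a median of 0.914 over the members, from 0.374 for Gpr50 to 3.02 for Pkd2l1. In 83 members the means were within 2-fold of each other, and the other 8 were Gpr50, Dmbx1, Irx4, Nrk and Best2, lower with NaB, and Pkd2l1, Tlr5 and Myom3, higher with NaB. Without the second TSA library, NaB lay below TSA in 36 members (39.6%, beside 29.6% of all tested genes) and above it in 16 (17.6%, beside 28.6%), and the median ratio was 0.893.

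**Figure D4:**
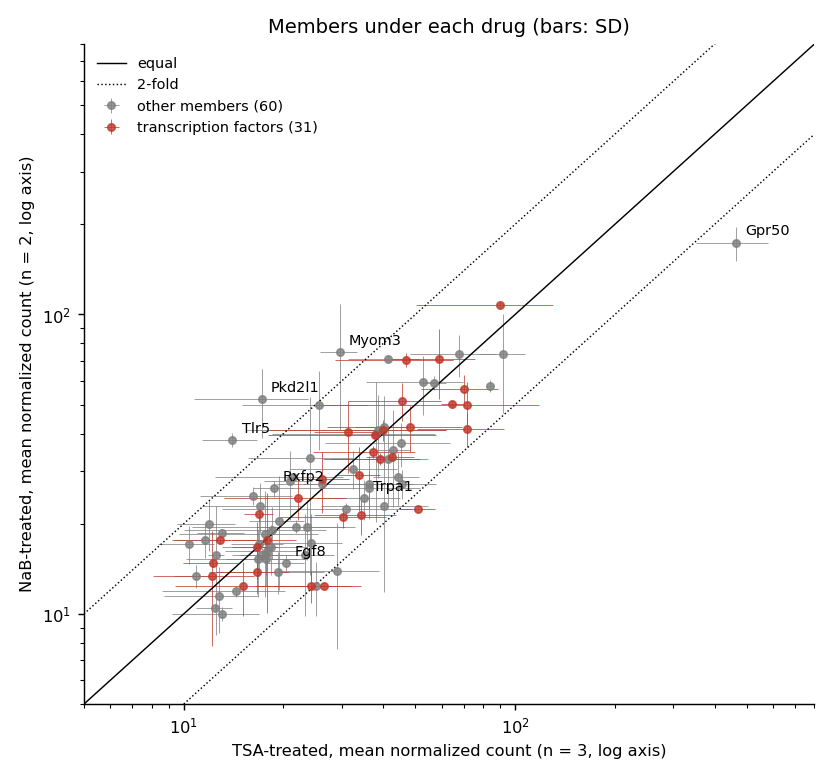
Mean normalized count of each member with TSA (horizontal, n = 3) and NaB (vertical, n = 2) on log axes, with SD bars, a line of equality and dotted lines at 2-fold. Most of the 91 points lie between the dotted lines, with Gpr50 below them at 465 and 174 and Pkd2l1, Tlr5 and Myom3 above.

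The 3 TSA libraries differed among themselves. The second TSA library was the lowest of the 3 in 63 of 91 members (69.2%). For transcription factors this held in 29 of 31 (93.5%), and for the other members in 34 of 60 (56.7%). Outside the members, it held in 54.3% of the 2566 genes called higher with both drugs and in 76.8% of the 82 such transcription factors on the lists. These shares are given with no test, since genes of 1 library are not replicates. Divided by the mean of the other TSA libraries, the second library had a median of 0.656 over the transcription factors and 0.828 over the other members. The other members were not alike, with medians of 0.526 over the 3 enzymes and 0.632 over the 11 other named genes, as low as those of the factors, and 1.17 over the 5 immune genes. No difference between roles was tested.

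Barhl2 (88, 23 and 115 reads) and Sox14, a factor of GABAergic and brainstem neurons (59, 18 and 43 reads), were among the members with a low second library, while their NaB libraries were closer to each other (60 and 45 reads for Barhl2, 42 and 41 for Sox14). The second TSA library was not the shallowest, with 27606793 recovered reads against 26981930 and 26070908. The fibroblast marker Col1a1 differed between cultures as well, with 909, 47.4 and 1379 normalized counts in the controls for TSA and 798, 696 and 879 with TSA. By the methods, each control was grown on a plate with its treated counterpart, and the part of these differences in the pattern was not tested.

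**Figure D5:**
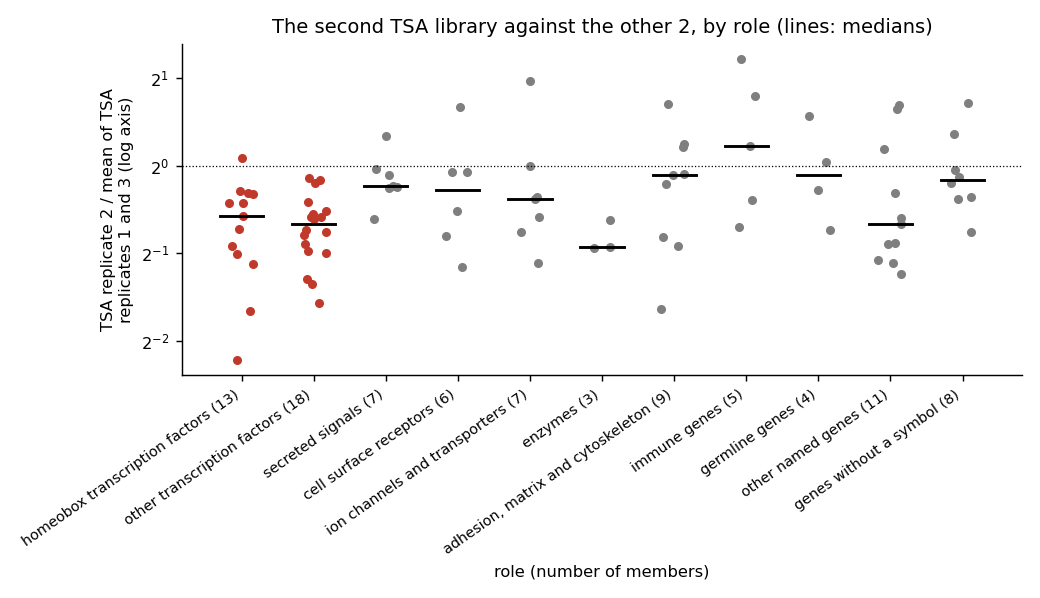
Normalized count in the second TSA library divided by the mean of the other TSA libraries (vertical, log2 axis), for each member by role (horizontal, number of members in brackets), with a point per member and a line at each median. Medians ran from 0.526 for enzymes through 0.629 for other factors, 0.632 for other named genes and 0.671 for homeobox factors to 1.17 for immune genes.

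Values close to the limits show how the rule drew its line. Pln, Ttc29 and Fgf21 were just inside both limits, each with 3 reads in a control and 10 in its lowest treated library. Just outside the limit for controls were F12 (4, 3, 4, 3 and 2 reads in the 5 controls and 10 in the lowest treated library), Kbtbd12 and Rgs9bp, 3 of 38 genes with 4 reads in a control. Just outside the limit for treated libraries were Bicdl2 (28, 9 and 23 reads with TSA, 26 and 15 with NaB), Vsig8 and Ccr7, 3 of 13 genes with 9 reads in the lowest treated library. Before symbols were left out, 17 further silent genes reached 10 reads in all TSA libraries only and 71 in both NaB libraries only. TSA had 3 libraries to pass and NaB 2, so these counts are not on equal terms. Without the second TSA library, 128 silent genes reached 10 reads with both drugs, 34 with TSA only and 53 with NaB only.

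Genes of the same role lists that were not members were mostly already above 3 reads in a control. Among the homeobox genes with an identifier, 40 were not members, of which 28 had over 3 reads in a control, and 34 of the 35 tested were higher with TSA and 28 with NaB, with none lower. Of 81 other transcription factors outside the members, 66 had over 3 reads in a control, and 68 of 72 tested were higher with TSA and 59 with NaB, with none lower. For secreted signals, 52 of 53 tested non-members were higher with TSA and 43 with NaB. Receptors gave 66 and 60 of 69, channels and transporters 56 and 51 of 56, enzymes 62 and 60 of 62, adhesion genes 60 and 60 of 63, immune genes 31 and 30 of 33, and germline genes 23 and 20 of 24. Symbols were taken from the part of the study's table of changed genes used here, and all 1830 tested genes with a symbol had a fold change above 0 with at least 1 drug. The direction of these counts and the large shares called therefore follow from how the genes were named and are not evidence about the roles. Over all tested genes, 22.5% were called higher with TSA and 21.2% with NaB. The same limit holds for the silencing genes and cell markers that follow.

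Of the silencing machinery on the lists, 2 of 29 Polycomb genes, Cbx7 and Pcgf5, had an identifier, and genes that fell could not appear. Their values are given as a description. Cbx7, which reads the Polycomb mark on histone H3, had 138, 152 and 149 normalized counts in the controls for TSA against 665, 702 and 605 with TSA (log2 fold change 2.16, SE 0.17), and 241 and 145 against 954 and 791 with NaB (2.21, SE 0.21). Pcgf5, a subunit of Polycomb complex 1, had log2 fold changes of 1.22 (SE 0.17) with TSA and 0.99 (SE 0.21) with NaB. Histone deacetylases, their corepressors and DNA methylation genes were not analysed here for the same reason of names.

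Of the markers of other cell types, 2 of 8 endothelial, 2 of 8 fibroblast and meningeal and 1 of 10 microglial genes had an identifier, and none of these was at 0 in any library. No ependymal marker had one. The endothelial gene Vwf had log2 fold changes of 1.77 (SE 0.34) with TSA and 1.93 (SE 0.42) with NaB. Those of Kdr, another endothelial gene, were 2.53 (SE 0.32) and 1.27 (SE 0.40), and those of the mesenchymal factor Twist1 were 1.72 (SE 0.38) and 1.76 (SE 0.47). The microglial gene Tmem119 had 1.04 and 2.09 normalized counts in the controls for NaB against 15.1 and 11.6 with NaB, and 2.11, 1.03 and 5.33 against 5.63, 4.52 and 1.94 in the TSA experiment. Col1a1 was not called with either drug (limma adjusted p = 0.381 with TSA and 0.0735 with NaB), but was called higher with NaB when the replicate pair was a block (adjusted p = 0.0117). The 5 markers summed to 985, 101 and 1437 normalized counts in the controls for TSA and 1079, 903 and 1148 with TSA, and to 242 and 217 against 1141 and 1225 in the NaB experiment, with Col1a1 the most abundant in every library. Their part in the reads of the members was not tested.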

How the data were processed

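Deposited values were the signal that the authors made by counting reads per gene and dividing by a size factor for each library. The submitters' processing notes and methods name STAR 2.7.9a, featureCounts 2.0.1, DESeq2 1.29 and the build Rnor_6.0. The strand setting was not given in the sources used here. Each value was divided by the smallest nonzero value of its library, which gave whole reads for 100% of values (tolerance 0.001). Libraries held 26070908 to 27649249 recovered reads.

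Differences were tested with limma 3.58.1 (R 4.3.3, moderated test with trend) on log2(deposited value + 1), with 10 libraries in 4 groups, for 15717 of 32883 genes that passed edgeR's filterByExpr (minimum count 10). P-values were adjusted by the Benjamini-Hochberg method over all tested genes, and a call needed an adjusted p below 0.05 together with a log2 change of 0.5 or more in size. edgeR 4.0.16 and DESeq2 1.42.0 on recovered reads were alternatives. Because 1 was added before taking logs, changes of low genes are understated. P-values measure the spread between these libraries. The scripts were tested on simulated data. For the NaB minus TSA difference, limma recovered 69 of 200 genes changed 2-fold and 181 of 200 changed 4-fold. The spread in the simulation was fixed and not taken from these libraries, and genes with few reads were not looked at separately.

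Members, gene lists and tests were chosen with earlier results of these data known. Symbols came from the study's supplementary table of changed genes, of which a shortened copy was used that gave a symbol for 1911 identifiers. All 1830 of these that were tested had a fold change above 0 with at least 1 drug. The table's columns of fold changes and p-values were not used. Values per library were given for the 4 members of each role with the most reads in their lowest treated library (2 for unclassified members and members without a symbol), for the 3 members at each end of the NaB minus TSA difference, and for genes next to the limits of the rule. Other named members are stated as such, and the values of some members are not reported here. The planned check of promoter composition over the members was void (63 of 83 matched, where 80% are needed).

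By the methods, each control was grown on a plate with its treated counterpart. The labels do not say which libraries form a pair, and pairs were taken from the replicate numbers. Deviations from the group means correlated within each pair (r = 0.331, 0.425 and 0.344 for TSA and 0.398 for NaB, where a group of 2 gives both pairs the same r), and the libraries were taken as paired in an alternative fit with the pair as a block. Libraries of a group differed by more than sampling noise (chi-square per degree of freedom 8.17 to 31.6).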

Additional observations from a re-analysis of the deposited data

How the results depend on the processing

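The number of members follows from the limits. With all other settings kept, the rule gave 9 members where no control read was allowed, 27 with at most 1 and 174 with at most 5 in every control. It gave 197 with at least 5 reads in every treated library, 39 with at least 20 and 7 with at least 50, and 43 where the limits were set on normalized counts. Leaving out 1 library at a time gave 92 to 109. With a mean of at least 50 normalized counts required, 1 member was tested and called with TSA, and 1 with NaB. Without 1 library at a time, 91 members were called with TSA and 89 to 91 with NaB. DESeq2 on recovered reads called 91 members with TSA and 89 with NaB, and edgeR called 91 with each drug.

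No member was called for the NaB minus TSA difference under any alternative that kept the controls. In the direct comparison of treated libraries, chosen after seeing the data, limma called 1, edgeR 3 and DESeq2 1. Over all tested genes the difference gave 47 calls, 255 by DESeq2, 31 without a filter and 71 with library totals. The direct comparison gave 694 by limma, 723 by edgeR and 897 by DESeq2. Leaving out 1 library gave 1 (without the second control for NaB) to 45, and the cause was not tested. A log2 change of 1 or more in size was met by 3416 of 6644 genes with TSA and 3450 of 6521 with NaB. Library totals moved the median of all tested genes to 0.20 with TSA and 0.13 with NaB. The 6 members at the ends of the difference were chosen as its extremes. Their direction was the same in the 109 alternatives counted for them, with the direct comparison run by limma. Of these 109, 1 was called, Gpr50 in that direct comparison. The direct comparisons by edgeR (Gpr50 and Myom3 called) and by DESeq2 (Gpr50 called) were not among the 109. Sizes moved, between treated libraries alone from -1.51 to -0.48 for Trpa1, from -1.50 to -0.43 for Fgf8 and from 1.53 to 0.47 for Rxfp2.

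With the replicate pair as a block, the members called stayed at 91, 91 and 0 (TSA, NaB and their difference), and all genes called were 6958, 6950 and 404. Among the genes named, the block changed the call of Col1a1 with NaB alone. The median member had 17 reads in its lowest treated library, and detection of differences at such counts was not tested separately. The promoter alternative was not run, since the check was void.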
